A study of Mus musculus with 6 samples.

Results

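Cell adhesion genes of the neural lineage were examined for open chromatin in neural stem and progenitor cells (NSPCs) with and without the *Sox2* enhancer cluster SRR2–18. The set holds 39 genes. They comprise classical and atypical cadherins (*Cdh*), the immunoglobulin adhesion genes *Cadm* and *Ncam*, the synaptic organisers *Nrxn*, *Nlgn* and *Lrrtm*, and the contactins (*Cntn*) with *Cntnap2*. An accessible interval was assigned to one of these genes when its strongest summit lay nearest to a transcription start site (TSS) of that gene among all protein-coding TSSs, at most 100 kb away. Of the 82885 distinct intervals in the parent list, 282 met this rule, and of the 107480 in the deletion list, 305 did, which makes 587 of 190365 intervals in all. The intervals were thus selected on measured values, namely presence in a peak list and the position of the summit with the highest fold enrichment. The counts of intervals per gene are therefore given as a description. Among parent intervals assigned to the set, the one closest to the distance limit lay at *Cdh4*, 97.4 kb from the TSS, with a fold enrichment of 2.78. The nearest one beyond it lay at *Cdh10*, at 106 kb, with 18.4. In the deletion list the corresponding intervals lay at *Cadm1*, at 99.7 kb with a fold enrichment of 5.10, and at *Ncam1*, at 100 kb with 18.0.

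ATAC-seq, in which a transposase cuts and tags DNA wherever chromatin is open, was performed on 3 cultures of each genotype. Both genotypes derive from embryonic stem cells of the strain 129S1/Cast F1 Hybrid, carry the Sox2-mCherry (129) reporter allele and were kept as NSPCs in N2B27 medium with EGF and bFGF on poly-d-lysine and laminin, with 30000 cells used per culture according to the labels. The parent is clone 5B, which has no deletion, and the ΔSRR2–18 line is clone 47D, which has a homozygous SRR2-18 deletion, so that each genotype is represented by 1 clone and an effect of the clone cannot be told apart from an effect of the deletion. The authors gave peak lists per genotype, kept to peaks that recurred between cultures by the irreproducible discovery rate (IDR), with values pooled over the cultures. The values below therefore come without replicate error, and the genotypes are compared without a test.

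Cadherins are calcium-dependent adhesion molecules that bind a like molecule on the neighbouring cell and connect through catenins to the actin cytoskeleton. Neuroepithelial cells hold together through N-cadherin, the product of *Cdh2*, while the type II cadherins are known for combinatorial expression that sorts neurons into nuclei, columns and layers. Neurexins on axons bind neuroligins and LRRTM proteins across the synaptic cleft, and contactins and NCAMs are immunoglobulin proteins of axons and glia that act in outgrowth and in myelinated fibres. Enhancers of such genes can lie in long introns, and these are long genes, with a median length of 227 kb against 17.4 kb over all protein-coding genes.

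Each interval carries 3 values used here. The fold enrichment is the height of reads at the summit over the local background. The number of summit reads was worked out from that ratio together with the p-value of the peak caller (given as −log10 p), and came out whole, within 0.05 of an integer, for at least 99.9993% of the peaks in every list. The parent libraries were deeper. The lowest local background amounted to 38.8 reads in the parent and 19.7 in ΔSRR2–18, a ratio of 1.98, by which parent reads were divided to give scaled reads. An interval that overlapped no interval of the other genotype by even 1 bp is called parent-only or deletion-only, and the others are called shared. Absence from a list is not absence of accessibility, since a peak also had to recur between cultures to be listed. Of the parent-only intervals at the adhesion genes, 30 (16.5%) had fewer scaled reads than 119, the 5th percentile of the deletion list, and a site of that height would have been near the limit of the shallower list. Open promoters of 10 of 10 NSPC marker genes, *Sox2*, *Nes* and *Pax6* among them, were listed in both genotypes. Those of the neuronal genes were listed for 3 of 4 in the parent and 4 of 4 in ΔSRR2–18, with *Rbfox3* the one that differed. Promoters of 0 of 4 epithelial genes were listed in the parent and 2 of 4 in ΔSRR2–18 (*Epcam* and *Krt8*), and those of 1 of 3 and 3 of 3 endothelial genes (*Pecam1* and *Tek* in ΔSRR2–18 only). Glial genes (1 of 3), pluripotency genes (1 of 4) and mesodermal genes (3 of 4) gave the same count in both. The part of these marker promoters in the results below was not tested.

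Some of the stronger genotype-specific intervals are shown with their sequence, because motif matches differed in share between deletion-only and parent-only intervals, as described further on. All of those shown were chosen for holding a match, so they are examples only. Each run is the mm10 reference, plus strand, from 100 bp before to 100 bp after the strongest summit. For the deletion-only intervals, matches to the AP-1 consensus TGANTCA on either strand are in capitals. AP-1 is a family of leucine zipper dimers of the JUN and FOS type.

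Nrxn3, chr12:89843005-89843205, deletion-only: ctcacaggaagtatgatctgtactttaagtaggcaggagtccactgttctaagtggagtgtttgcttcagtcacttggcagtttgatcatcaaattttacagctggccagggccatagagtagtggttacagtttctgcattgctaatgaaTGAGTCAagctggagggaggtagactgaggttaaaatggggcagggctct
Nrxn3, chr12:89888767-89888967, deletion-only: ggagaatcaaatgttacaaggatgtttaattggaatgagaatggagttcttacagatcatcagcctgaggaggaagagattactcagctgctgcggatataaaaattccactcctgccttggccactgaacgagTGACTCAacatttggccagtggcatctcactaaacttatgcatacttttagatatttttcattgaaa
Cdh18, chr15:23105069-23105269, deletion-only: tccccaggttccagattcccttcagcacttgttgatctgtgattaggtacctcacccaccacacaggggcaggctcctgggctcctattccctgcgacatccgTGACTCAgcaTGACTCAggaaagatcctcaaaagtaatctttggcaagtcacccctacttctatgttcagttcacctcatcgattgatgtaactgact

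These 3 lay among the 5 deletion-only intervals with the highest fold enrichment at the adhesion genes (27.7, 25.5 and 24.3), with 1236, 1485 and 692 summit reads, and all 3 are intronic. The match lay 51 bp from the summit in the first *Nrxn3* interval and 34 bp in the second. The *Cdh18* interval held 2 matches, the nearer 3 bp from the summit. An AP-1 match also stood in a deletion-only interval of *Cdh3*, with 926 reads. It was chosen after its values were seen, as an example from a gene with all its genotype-specific intervals in ΔSRR2–18.

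Cdh3, chr8:106529935-106530135, deletion-only: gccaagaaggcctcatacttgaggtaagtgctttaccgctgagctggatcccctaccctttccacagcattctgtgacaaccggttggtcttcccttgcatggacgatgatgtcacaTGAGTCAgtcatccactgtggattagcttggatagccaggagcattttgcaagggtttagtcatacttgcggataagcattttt

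None of the 5 parent-only intervals with the highest fold enrichment held the SOX consensus ACAATG. Those 5 lay at *Cadm2* (36.5), *Nrxn3* (33.1), *Cntn3* (29.3), *Lrrtm2* (27.0) and *Ncam2* (26.7), all in introns. The intron at *Lrrtm2* belongs to another gene, since 0 intervals lay in the body of *Lrrtm2* itself. The *Ncam2* interval held an AP-1 match. The parent-only intervals with a SOX match and the highest fold enrichment, also picked after their values were seen, lay at *Cntn1* (22.2), *Cdh20* (21.2 and 19.9) and *Ncam1* (20.8). SOX matches are in capitals here.

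Cntn1, chr15:92092134-92092334, parent-only: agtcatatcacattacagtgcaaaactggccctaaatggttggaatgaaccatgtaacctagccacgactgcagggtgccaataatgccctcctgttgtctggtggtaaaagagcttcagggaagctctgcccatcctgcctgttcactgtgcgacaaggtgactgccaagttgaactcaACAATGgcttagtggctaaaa
Cdh20, chr1:104838289-104838489, parent-only: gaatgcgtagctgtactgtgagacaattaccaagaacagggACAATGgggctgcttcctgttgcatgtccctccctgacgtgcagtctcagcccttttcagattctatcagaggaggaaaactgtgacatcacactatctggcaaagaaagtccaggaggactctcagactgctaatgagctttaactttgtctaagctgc
Cdh20, chr1:104828163-104828363, parent-only: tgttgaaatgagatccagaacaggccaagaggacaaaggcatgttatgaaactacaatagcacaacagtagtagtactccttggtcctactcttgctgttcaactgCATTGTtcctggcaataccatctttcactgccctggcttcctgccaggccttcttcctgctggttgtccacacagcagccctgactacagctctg
Ncam1, chr9:49728290-49728490, parent-only: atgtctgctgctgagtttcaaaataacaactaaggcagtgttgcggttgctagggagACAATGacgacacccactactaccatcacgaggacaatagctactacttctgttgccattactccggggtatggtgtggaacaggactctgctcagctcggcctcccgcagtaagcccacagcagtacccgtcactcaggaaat

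Across the set, genotype-specific intervals outnumbered shared ones in both directions. Of the 282 parent intervals 182 were parent-only (64.5%, 95% Wilson interval 58.8 to 69.9), against 48.3% of all parent intervals within 100 kb of a protein-coding TSS. Of the 305 deletion intervals 204 were deletion-only (66.9%, 61.4 to 71.9), against 56.8% of all. These intervals cover counting error only. Much of the set lies away from promoters, where most genotype-specific intervals are found. With promoters left out, the shares were 69.9% and 72.0%, against 59.2% and 67.0% of all intervals outside promoters. The ratio of deletion-only to parent-only intervals was 1.12 (0.918 to 1.37), while over all genes it was 1.41 (1.39 to 1.43). With lists cut to equal length by fold enrichment, the ratio at the adhesion genes was 0.797 (0.648 to 0.980) and that over all genes 0.861, so both turned with the way the lists are matched. Absence judged against both lists of the other genotype left 171 parent-only and 197 deletion-only intervals.

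Per gene, 16 of the 39 had more parent-only intervals, 19 had more deletion-only intervals and 4 had equal numbers, *Nlgn2* with none being one of the 4. Among the 17738 protein-coding genes with any interval, 27.4% had more parent-only and 46.6% more deletion-only intervals. The adhesion genes gave 41.0% and 48.7%. Equal numbers were found at 26.1% of all these genes and at 10.3% of the adhesion genes, so with fewer ties both shares can be higher at the adhesion genes. With lists of equal length the lean among the adhesion genes turned, to 20 with more parent-only and 13 with more deletion-only intervals. At a distance limit of 10 kb the numbers were 15 and 10. Both genotypes had assigned intervals at 30 genes. *Cdh7*, *Cdh8*, *Cdh9*, *Cdh12*, *Cdh18* and *Lrrtm4* had intervals in ΔSRR2–18 and none in the parent, and *Cdh19* and *Cdh20* the reverse. *Nlgn2* had an interval over its TSS in both lists, but in each its strongest summit lay nearer to a TSS of a neighbouring gene.

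**Figure D1:**
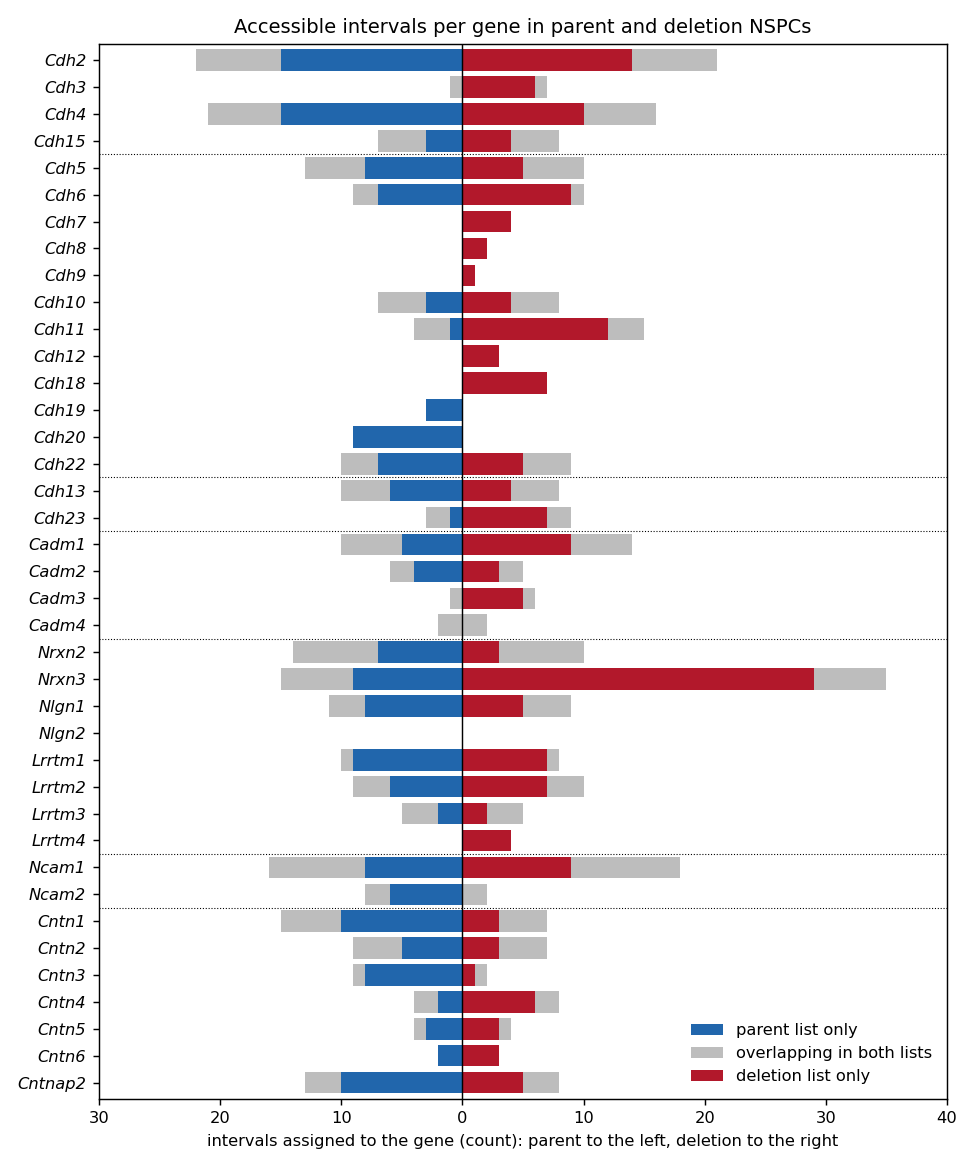
Number of accessible intervals assigned to each of the 39 genes, parent to the left and ΔSRR2–18 to the right; coloured bars are intervals of 1 list without overlap in the other, grey bars are overlapping intervals, and dotted lines separate the families. *Nrxn3* has the longest coloured bar, with 29 deletion-only intervals, and *Cdh20* has 9 parent intervals and none in ΔSRR2–18.

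The classical type I cadherins (*Cdh2*, *Cdh3*, *Cdh4* and *Cdh15*) had 51 parent and 52 deletion intervals, 33 and 34 of them genotype-specific. *Cdh2*, which encodes N-cadherin, was open in both genotypes but largely at different places. It had 22 parent and 21 deletion intervals, of which 15 and 14 were genotype-specific. Its promoter had 2012 scaled reads in the parent and 1152 in ΔSRR2–18, a log2 difference of −0.80. An intronic interval 43.4 kb upstream of the nearest TSS went from 1972 scaled reads in the parent to 129 in ΔSRR2–18 (log2 −3.93), the lowest ratio of all overlapping pairs at the adhesion genes. Intronic intervals 68.2 and 64.0 kb from a *Cdh2* TSS went the other way, from 117 to 1863 reads (log2 3.99) and from 165 to 1417 (log2 3.10). The highest and the lowest ratio of the set were therefore found within 1 gene.

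*Cdh4*, which encodes R-cadherin of the retina and forebrain, had 21 parent and 16 deletion intervals, 15 and 10 genotype-specific. A parent-only intronic interval 95 kb downstream of a TSS had 3510 scaled reads, within the top 0.901% of the parent list by reads. A deletion-only interval 26.4 kb downstream of a TSS had 2640 reads, within the top 1.34% of the deletion list. The *Cdh4* promoter had 1664 scaled reads in the parent and 661 in ΔSRR2–18 (log2 −1.33). *Cdh3*, which encodes the P-cadherin of epithelia, had 1 parent interval, 3.03 kb upstream of its TSS with 1066 scaled reads, where ΔSRR2–18 had 465. The other 6 intervals were deletion-only and lay at the TSS and up to 19.1 kb into the gene, with 422 reads at the TSS and then 1004, 1508, 416, 365 and 926 along the gene. None of these had a listed counterpart in the parent. *Cdh15*, the M-cadherin of muscle, had 7 and 8 intervals, 3 parent-only and 4 deletion-only, and its TSS was in neither list.

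The 12 type II cadherins (*Cdh5* to *Cdh12*, *Cdh18*, *Cdh19*, *Cdh20* and *Cdh22*, as grouped here) had 55 parent and 69 deletion intervals, with 38 parent-only (69.1%) and 52 deletion-only (75.4%). At 8 of the genes deletion-only intervals were more numerous and at 4 parent-only intervals were. *Cdh20* was the clearest case on the parent side. All 9 of its intervals were parent-only, with a lowest scaled read number of 187, a median of 689 and a highest of 2375. The tallest pair lay upstream, 21.5 kb from the TSS with 2375 scaled reads and 13.8 kb with 1352, and the promoter had 727. A further intronic interval at 69.9 kb, printed above, had 1208. The ΔSRR2–18 list held none within the distance limit, although 3 deletion intervals that were not assigned to it lay in its gene body. Within 5 Mb of *Cdh20*, intervals not assigned to it numbered 54 parent-only and 121 deletion-only, so the surroundings leaned the other way. *Cdh19*, a cadherin of Schwann cell precursors, had 3 parent intervals, all parent-only with 109 to 299 scaled reads.

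*Cdh11* and *Cdh18* stood on the other side. *Cdh11*, a cadherin of mesenchymal and some neural cells, had 4 parent and 15 deletion intervals, and 1 and 12 of these were genotype-specific. Its promoter was in both lists, with 669 scaled reads in the parent and 966 in ΔSRR2–18 (log2 0.53). The deletion-only intervals had 95 to 751 reads, and 4 of them had their summits close together, 42.4 to 45.2 kb into the gene, with 230, 534, 617 and 264 reads. *Cdh18* had 7 deletion intervals and none in the parent. Its TSS interval had 848 reads, the interval printed above 692, and the others 118 to 623. In the whole gene body, which spans 925 kb, 30 deletion intervals and 0 parent intervals were listed, and in that of *Cdh12*, 21 and 0. These genes lie on chromosome 15, as do *Cdh6*, *Cdh9* and *Cdh10*. Within 5 Mb of *Cdh10*, intervals not assigned to it numbered 5 parent-only and 137 deletion-only, whereas *Cdh10* itself had 3 and 4. That window takes in the bodies of *Cdh12* and *Cdh18*. Around *Cdh18* the counts were 88 and 281. The counts around *Cdh18* likewise take in the body of *Cdh12* and the unassigned intervals in the body of *Cdh18* itself. Neither neighbourhood is thus made up of other genes alone. The part of the surrounding stretch in the counts of *Cdh12* and *Cdh18* was not tested.

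*Cdh6*, one of the early patterned cadherins of the neural tube, had 7 parent-only and 9 deletion-only intervals and 1 of the larger promoter differences, with 2620 scaled reads in the parent and 941 in ΔSRR2–18 (log2 −1.48). Its tallest parent-only interval, 43.8 kb upstream, had 980 scaled reads, and deletion-only intervals 70.8 and 36.8 kb upstream had 889 and 768. *Cdh10* had 1194 scaled reads at 1 promoter in the parent and 537 in ΔSRR2–18 (log2 −1.15). At another of its TSSs it had 431 and 955 (log2 1.15). *Cdh22* had 7 parent-only and 5 deletion-only intervals and *Cdh5*, which encodes the VE-cadherin of endothelium, 8 and 5, while the *Cdh5* TSS was in neither list. The TSSs of *Cdh7*, *Cdh8* and *Cdh9* were listed in ΔSRR2–18 alone, at 187, 165 and 223 reads, all below the median of 353 summit reads of that list.

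Among the atypical cadherins, *Cdh23*, which encodes a component of the tip links of hair cells, had 3 parent and 9 deletion intervals, 1 and 7 genotype-specific. Its promoter hardly differed, at 234 scaled reads in the parent and 221 in ΔSRR2–18. A deletion-only intronic interval 78.5 kb downstream of a TSS had 1817 reads, within the top 4.56% of the deletion list. *Cdh13*, the GPI-anchored T-cadherin, had 6 parent-only and 4 deletion-only intervals and 1 shared interval 2.99 kb from a TSS that had 407 scaled reads in the parent and 2151 in ΔSRR2–18 (log2 2.40).

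The *Cadm* genes, whose products are nectin-like adhesion molecules of synapses and axons, had 9 parent-only and 17 deletion-only intervals. *Cadm1* contributed 5 and 9. Its promoter had 2493 scaled reads in the parent and 1828 in ΔSRR2–18 (log2 −0.45), and a shared interval 93.5 kb downstream of a TSS had 1129 scaled reads in the parent and 222 in ΔSRR2–18 (log2 −2.35). *Cadm3* had 1 parent and 6 deletion intervals. The 1 in common, in an intron of another gene 22.3 kb upstream, had 119 scaled reads in the parent and 528 in ΔSRR2–18. The TSS interval, with 338 reads, was listed in ΔSRR2–18 alone. *Cadm2* had the parent-only interval with the highest fold enrichment of the set, at chr16:67598495-67599243 in an intron, with 878 scaled reads. *Cadm4* had only shared intervals, 2 in each list.

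**Figure D2:**
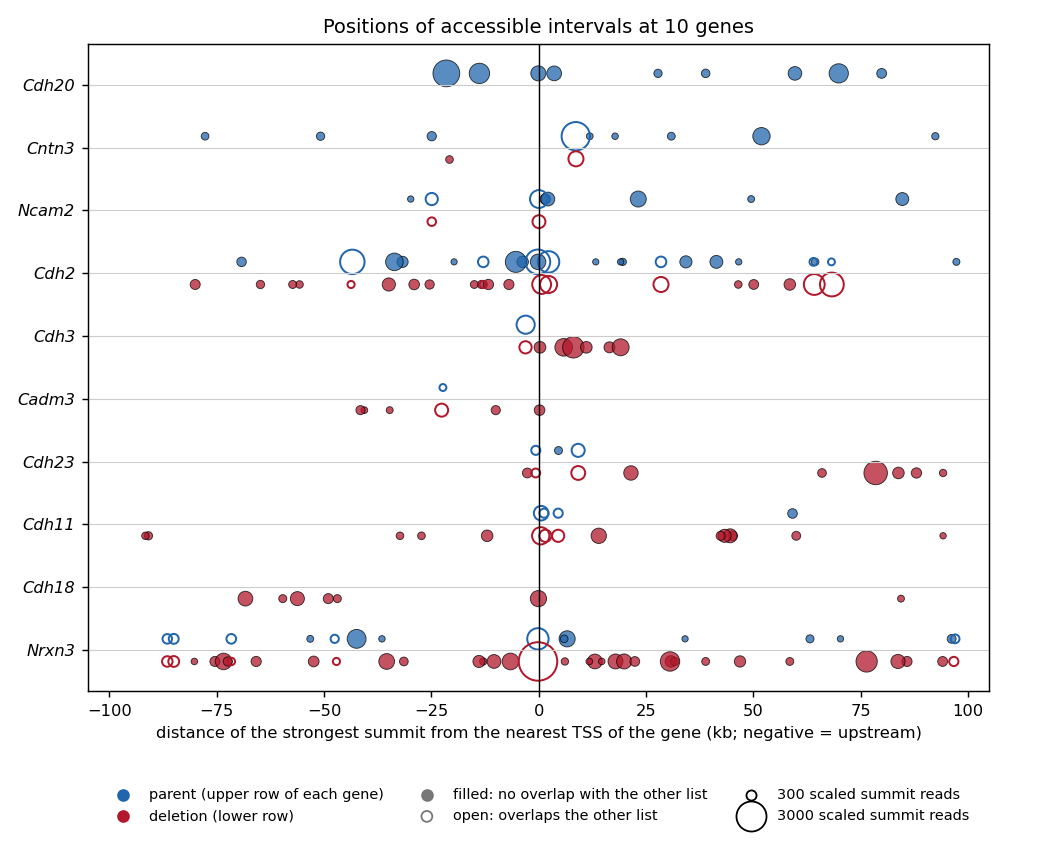
Position of every assigned interval at 10 genes by distance from the nearest TSS of the gene in kb, with the parent in the upper row of each gene and ΔSRR2–18 in the lower; filled circles are genotype-specific, open circles shared, and the area grows with scaled summit reads. The upper row alone is filled at *Cdh20* and the lower row alone at *Cdh18*, while at *Cdh2* filled circles of both colours alternate along the gene.

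The neurexin, neuroligin and *Lrrtm* genes had 64 parent and 81 deletion intervals, 41 and 57 of them genotype-specific, and *Nrxn3* accounted for much of the latter. *Nrxn3*, a presynaptic receptor gene of 1610 kb, had 15 parent and 35 deletion intervals, and 9 were parent-only and 29 deletion-only. This excess of 20 depended on how intervals were assigned. With the 5′ end of the gene as its only TSS the difference was −1, and within 10 kb of a TSS it was 0. Counted over the whole gene body, without regard to TSSs, it was 65. The deletion-only intervals had 101 to 1485 reads with a median of 308, and the parent-only ones had 89 to 1156 scaled reads with a median of 157. The strongest parent-only interval lay in an intron at chr12:88910734-88911421, 42.4 kb upstream of a TSS. A promoter inside the gene had 1496 scaled reads in the parent and 4954 in ΔSRR2–18 (log2 1.73), which placed it within the top 0.0437% of the deletion list by reads. Over the whole gene body, 16 parent and 81 deletion intervals were listed. *Nrxn3* lies on the distal part of chromosome 12, and the signal around it was also higher in ΔSRR2–18. Within 5 Mb, the overlapping pairs not assigned to *Nrxn3* had a median log2 of 0.50, against −0.27 over all pairs. Their median log2 of the background was 0.38, against −0.20. Intervals there that were not assigned to *Nrxn3* numbered 173 parent-only and 421 deletion-only, a ratio of 2.43. They include intervals in the body of *Nrxn3* itself. The part of this surrounding in the values of *Nrxn3* was not tested. Without *Nrxn3*, the set had 173 parent-only and 175 deletion-only intervals, a ratio of 1.01 (0.820 to 1.25).

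*Nrxn2* had the reverse pattern at smaller numbers, with 7 parent-only and 3 deletion-only intervals and a promoter that had 1893 scaled reads in the parent and 589 in ΔSRR2–18 (log2 −1.68). *Nlgn1*, a postsynaptic partner of neurexins, had 8 and 5, and a shared promoter interval with 1172 scaled reads in the parent and 279 in ΔSRR2–18 (log2 −2.07). *Lrrtm1*, another postsynaptic partner, had 9 parent-only and 7 deletion-only intervals. Its promoter had 1170 scaled reads in the parent and 336 in ΔSRR2–18 (log2 −1.80), and the parent-only intervals reached 2025 scaled reads against 274 for the tallest deletion-only one. *Lrrtm2* had 6 parent-only and 7 deletion-only intervals. Its TSS interval was listed in the parent alone, with 1290 scaled reads. Other *Lrrtm2* intervals were higher in ΔSRR2–18, the largest of them 22.7 kb from the TSS with 84.5 scaled reads in the parent and 919 in ΔSRR2–18 (log2 3.44). *Lrrtm3* had 2 parent-only and 2 deletion-only intervals, and *Lrrtm4* had 4 deletion intervals only, with 89 to 574 reads, 89 at its TSS.

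The *Ncam* genes differed from each other. *Ncam1*, which encodes the NCAM that carries polysialic acid in the immature nervous system, had 16 parent and 18 deletion intervals, 8 and 9 genotype-specific. An intergenic interval 17.5 kb upstream of *Ncam1* had 338 scaled reads in the parent and 2972 in ΔSRR2–18 (log2 3.14), within the top 0.755% of the deletion list. Another, 86.0 kb upstream, had 783 and 183 (log2 −2.10). The *Ncam1* promoter had 556 and 670 (log2 0.27). *Ncam2*, the olfactory paralogue, had 8 parent and 2 deletion intervals. Its 6 genotype-specific intervals were all parent-only, with 92 to 820 scaled reads, and both deletion intervals were shared, with 519 reads at the promoter against 1033 in the parent (log2 −0.99).

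The contactins with *Cntnap2* had 40 parent-only and 24 deletion-only intervals by the nearest TSS. This was the largest excess on the parent side among the 7 families, again without a test. The excess rests on that assignment. Whole gene bodies held 8 parent and 20 deletion intervals at *Cntn4* and 19 and 19 at *Cntn5*. They held 15 and 10 at *Cntn1*, 5 and 3 at *Cntn2*, 8 and 3 at *Cntn3*, and 8 and 4 at *Cntn6*. *Cntn3* had 8 parent-only and 1 deletion-only interval, the tallest at chr6:102520883-102521459 with 973 scaled reads. Its shared intronic interval, 8.65 kb from a TSS, had 2662 scaled reads in the parent and 720 in ΔSRR2–18 (log2 −1.89). *Cntn1*, whose product joins the paranodal junction of myelinated axons, had 10 and 3, and its promoter had 1884 scaled reads in the parent and 875 in ΔSRR2–18 (log2 −1.11). *Cntn2*, an axonal glycoprotein gene, had 5 and 3 with a promoter at 928 and 910. *Cntn6* had 2 parent-only intervals, and 1 of them was at its TSS with 2057 scaled reads and had no listed counterpart in ΔSRR2–18. *Cntn4* leaned the other way with 2 and 6, although its shared interval 77.3 kb downstream of a TSS had 1737 scaled reads in the parent and 260 in ΔSRR2–18 (log2 −2.74). *Cntn5* had 3 and 3. *Cntnap2*, a neurexin-like partner of contactins and the longest gene of the set at 2240 kb, had 10 parent-only and 5 deletion-only intervals by the nearest TSS. The tallest was a parent-only interval with 1591 scaled reads, 68.3 kb upstream of a TSS, and a shared interval 4.69 kb upstream had 600 scaled reads in the parent and 1455 in ΔSRR2–18. Counted over the whole gene body, *Cntnap2* had 19 parent and 27 deletion intervals, so its direction rests on the way intervals are assigned.

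Promoters were compared gene by gene with the interval that covers, or lies within 1 kb of, a TSS. Such intervals were listed in both genotypes for 22 of the 39 genes. They were listed in the parent alone for 4 (*Cdh19*, *Cdh20*, *Lrrtm2* and *Cntn6*; 10.3%) and in ΔSRR2–18 alone for 7 (*Cdh3*, *Cdh7*, *Cdh8*, *Cdh9*, *Cdh18*, *Cadm3* and *Lrrtm4*; 17.9%). Over all protein-coding genes these shares were 2.60% and 6.07%. In neither list were *Cdh5*, *Cdh12*, *Cdh15*, *Cntn3*, *Cntn5* and *Cntnap2*. For 20 of the 22 genes, the intervals nearest to a TSS in each list overlapped. For *Nlgn1* and *Cntn4* the nearest parent interval lay at a different TSS from the nearest deletion interval. Of the 20, 17 had fewer scaled reads in ΔSRR2–18 (85.0%), close to the 85.9% of all genes. The median log2 was −0.79 against −0.46 over 12603 genes. At least 2-fold lower were 7 genes (*Cdh4*, *Cdh6*, *Cdh10*, *Cadm4*, *Nrxn2*, *Lrrtm1* and *Cntn1*; 35.0%), against 12.0% of all genes, and at least 2-fold higher was 1, *Nrxn3*, against 3.38%. Other scalings were not tried for these promoters. *Cdh10*, *Cadm4* and *Cntn1* lay near the 2-fold limit, at log2 −1.15, −1.11 and −1.11. When any overlapping pair of intervals at a TSS of the gene was accepted, which was added after seeing the data, all 22 genes had one. *Nlgn1* then joined the lower genes (1172 scaled reads in the parent and 279 in ΔSRR2–18, log2 −2.07) and *Cntn4* the higher ones (253 and 575, log2 1.18). The counts became 8 lower (36.4%) and 2 higher (9.09%), against 12.3% and 3.52% of 12881 genes. Each gene was counted by 1 pair. In both counts *Cdh10* was among the lower genes, although a pair at another of its TSSs was higher (431 and 955, log2 1.15).

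**Figure D3:**
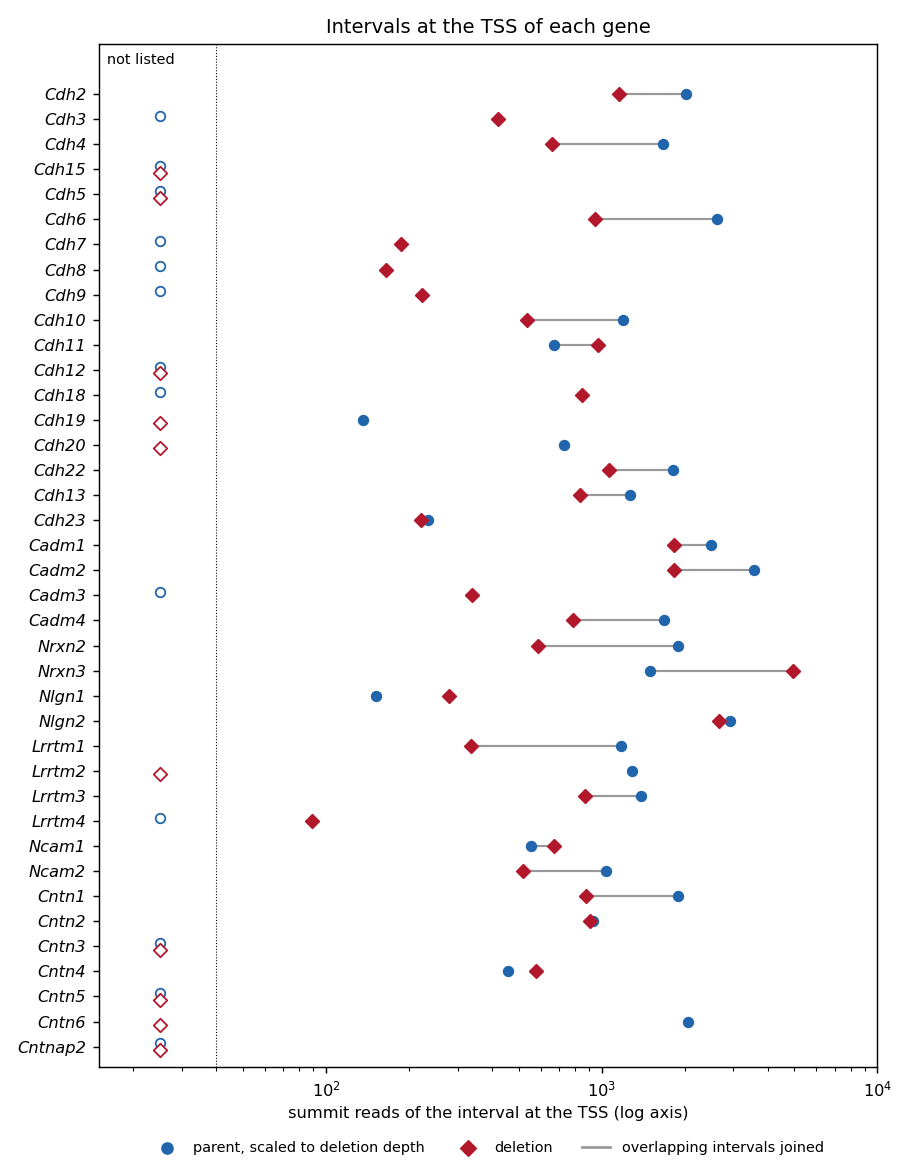
Summit reads of the interval at the TSS of each gene on a log axis, with circles for the parent (scaled to the deletion depth) and diamonds for ΔSRR2–18; lines join overlapping intervals and open symbols at the left edge mark genes without a listed interval. Most joined diamonds lie to the left of their circle, and *Nrxn3* at 4954 reads lies farthest to the right.

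Intervals listed in both genotypes formed 100 pairs at the adhesion genes. The median log2 of ΔSRR2–18 over scaled parent reads was −0.23 with an SD of 1.36 over pairs, and that of all 34585 pairs was −0.27. In ΔSRR2–18, 20 pairs were at least 2-fold higher (20.0%), against 14.3% of all pairs, and 26 at least 2-fold lower (26.0%), against 15.5%. The lean between higher and lower pairs rests on the scaling, since scaling by the median background in place of the lowest gave 25 higher and 17 lower. At promoters, 3 of 25 pairs were higher, against 5.33% of all promoter pairs, and 9 were lower, against 13.5%, with a median of −0.77 against −0.45. Outside promoters, 17 of 75 were higher (22.7%), near the 20.3% of all such pairs, and 17 were lower (22.7%), against 16.8%, with medians of 0.01 and −0.02. In all, 54.0% of the pairs at the adhesion genes lay within 2-fold, against 70.2% of all pairs.

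**Figure D4:**
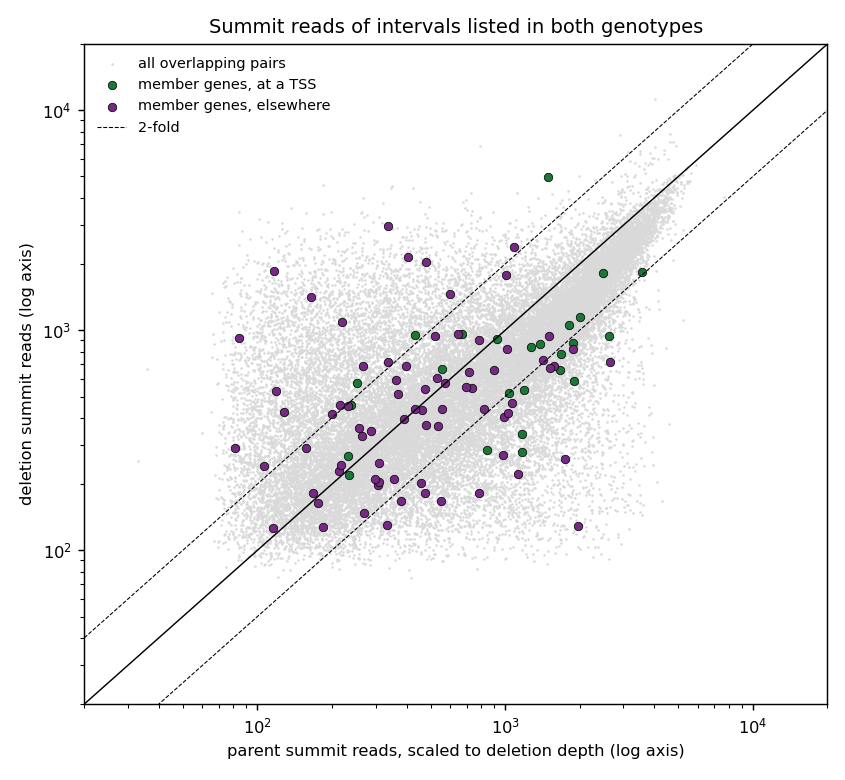
Summit reads of overlapping intervals in the parent (x, scaled to the deletion depth) and in ΔSRR2–18 (y), both on log axes; grey points are all 34585 pairs, green and purple points the 100 pairs at the adhesion genes at a TSS and elsewhere, and dashed lines mark 2-fold. Of the coloured points, 20 lie above the upper dashed line and 26 below the lower one.

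The intervals were mostly intronic, counting introns of any annotated gene and not only those of the assigned gene. Of the parent intervals 11.7% lay within 1 kb of an annotated TSS, 70.9% in gene bodies and 17.4% between genes, and of the deletion intervals 12.1%, 71.1% and 16.7%. Over all intervals within 100 kb, promoters made up 23.9% and 21.3% and gene bodies 49.2% and 49.3%. The median distance to the TSS was 28.3 kb in the parent and 31.4 kb in ΔSRR2–18, against 15.4 and 17.0 kb.

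Motif matches within 100 bp of the strongest summit differed between the genotype-specific classes, at the adhesion genes as over all genes. The AP-1 consensus was present in 108 of 204 deletion-only intervals (52.9%, 46.1 to 59.7), against 7.84% in flanks 500 bp away and 7.14% of parent-only intervals. Over all deletion-only intervals the share was 50.8%, so the adhesion genes did not stand apart by this measure. AP-1 matches were found at 31 of the 34 genes with a deletion-only interval, a count for which no share over all genes was worked out. Among them were 18 of 29 at *Nrxn3*, 7 of 9 at *Cadm1*, 6 of 12 at *Cdh11*, 5 of 5 at *Cdh5*, 4 of 7 at *Cdh18* and 4 of 6 at *Cdh3*. Lower were 6 of 14 at *Cdh2*, 4 of 10 at *Cdh4* and 2 of 9 at *Ncam1*, with 0 of 3 at *Cntn5* and at *Cntn6*. The deletion-only intervals with a match had a median fold enrichment of 12.0, and those without had 8.57. Over all deletion-only intervals the medians were 10.4 and 8.41, in the same order. The HOX-PBX consensus TGATTNAT was present in 12.3% of deletion-only and 4.95% of parent-only intervals, against 4107 of the 45612 deletion-only and 2.01% of the parent-only intervals over all genes. HOX proteins set position along the body axis and bind DNA with PBX partners.

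The SOX consensus was present in 42 of 182 parent-only intervals (23.1%, 17.6 to 29.7), against 17.0% in the flanks and 10.8% of deletion-only intervals. Over all parent-only intervals the share was 15.8%, with 10.4% in the flanks. The flanks at the adhesion genes thus also held more matches. Mean GC content was 49.5% at the adhesion genes and 51.3% over all parent-only intervals. SOX matches were found at 18 of 29 genes with parent-only intervals, again without a share over all genes. They stood in 6 of 15 at *Cdh2*, 6 of 8 at *Ncam1*, 4 of 9 at *Cdh20* and 4 of 8 at *Cdh5*. At *Cntnap2* and *Lrrtm1* the counts were 0 of 10 and 0 of 9. The ZIC consensus CAGCAGG was present in 12.1% of parent-only intervals and in 2 of the 182 flanks, and in 8.33% of deletion-only intervals, near the 12.6% and 8.15% over all genes. The TEAD consensus CATTCCA was present in 9.89% and 10.3%, against 6.17% and 9.11% over all genes. The CDX consensus TTTATNG was present in 7.69% and 12.7%, with flanks at 11.5% and 11.3%, against 5.55% and 10.2% over all genes. The POU consensus ATGCAAAT was present in 4 of 182 and 4 of 204, against 2.71% and 1.08%. CTCF matches were present in 1.65% and 0.490% of the genotype-specific intervals and in 8 of 100 shared ones, against 3.33%, 1.27% and 9.08% over all genes. An NFI match was present in 1 parent-only interval, and 0.220% of all parent-only intervals held one. A match is only the presence of the letters and not a bound site.

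**Figure D5:**
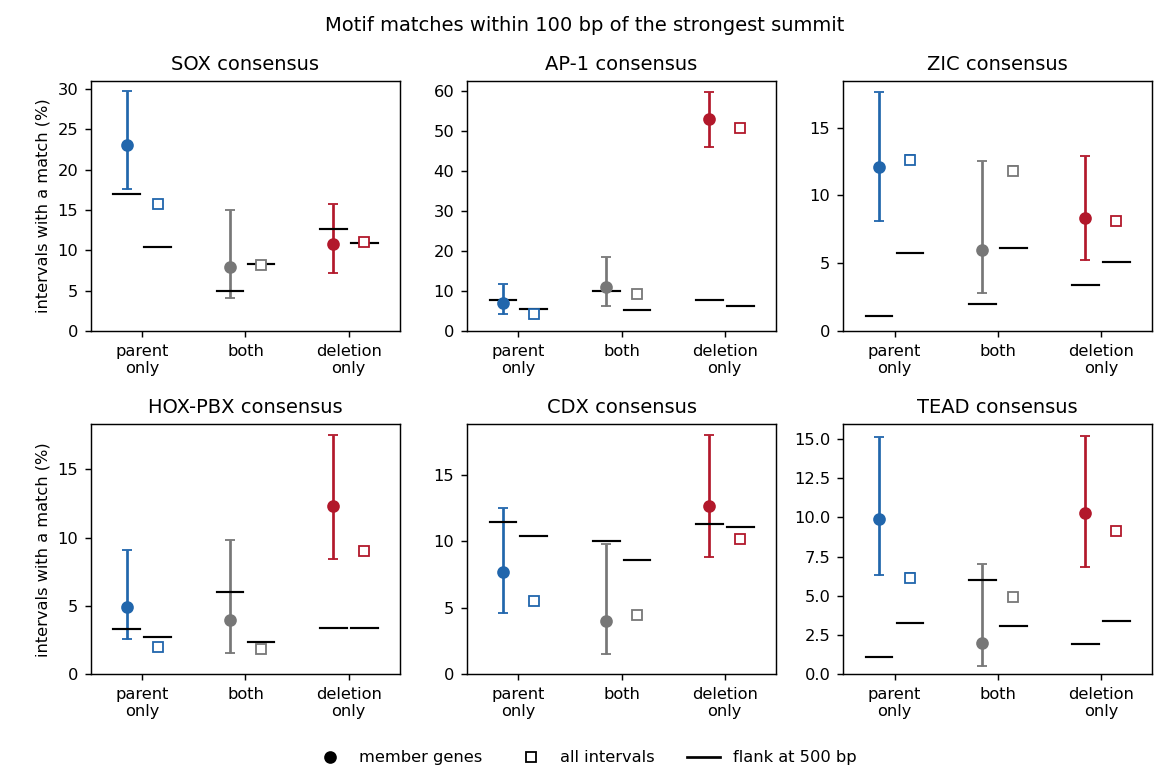
Percentage of intervals with a consensus match within 100 bp of the strongest summit, for parent-only, shared and deletion-only intervals; filled circles are the adhesion genes with 95% Wilson intervals, open squares all intervals of the class, and black dashes the flanks 500 bp away. AP-1 stands at 52.9% in deletion-only intervals, and the SOX share is highest in parent-only intervals.

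Genes listed here as partners of these adhesion genes gave a ratio of deletion-only to parent-only intervals of 1.37 (1.16 to 1.62) over 65 genes, near the 1.41 of all genes. More deletion-only intervals were found at 34 genes and more parent-only at 20. The catenins, which tie cadherins to actin, had 26 parent-only and 46 deletion-only intervals, with 8 and 14 at *Ctnnb1* and 4 and 14 at *Ctnna1*, while *Ctnnd2* had 8 and 2. The genes grouped as trans-synaptic partners, such as the cerebellins, latrophilins and receptor phosphatases, had 118 and 158. *Flrt2* (3 and 23) and *Cbln1* (0 and 12) leaned to ΔSRR2–18, and *Lrrc4* (20 and 11) and *Flrt1* (11 and 5) to the parent. Other immunoglobulin adhesion genes had 69 and 68, with 18 and 7 at *Chl1* and 7 and 0 at *Nfasc*. The non-clustered protocadherins had 25 and 54, with 0 and 10 at *Pcdh17*, 4 and 14 at *Pcdh18* and 6 and 0 at *Pcdh10*. *Flrt2* lies on chromosome 12 like *Nrxn3*.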

How the data were processed

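ATAC-seq libraries of 3 parent and 3 ΔSRR2–18 cultures were aligned by the authors to mm10 with the ENCODE pipeline. Peaks were called with MACS2 and combined by IDR, and 2 lists per genotype (conservative and optimal) were deposited. In each list the authors gave, per summit, an IDR score, a signal as ratio (fold enrichment over background), a −log10 p, and the summit position. The values are pooled over cultures, without replicate error, and the alleles are not separated. Sequencing depth per culture is 50 to 60 M reads per the labels. Depth per culture cannot be read from the lists.

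The conservative lists were used. Distinct intervals took the values of their summit with the highest fold enrichment. Summit reads n and background λ were solved from fold enrichment (n + 1)/(λ + 1) and the Poisson p. TSSs came from the GENCODE basic annotation of mm10 held with the reference, and promoters lay within 1 kb of any TSS. Motifs were exact consensus matches in the reference sequence. Neighbourhoods were all intervals within 5 Mb of a gene that were not assigned to it, including those in its own body. Ratios carry 95% intervals for counting error. Calculations used Python 3.11.15, numpy 2.4.6, pandas 2.3.3 and scipy 1.17.1, and functions were tested on simulated data.

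The member genes, the family and partner lists and the motifs were chosen with earlier results of these data known. Regions named are the 5 strongest genotype-only intervals of each genotype, those at each TSS and the 5 pairs with the highest and lowest ratio. Genes described in full are the 8 with most genotype-only intervals and those with at least 5, all or all but 1 in the same genotype. Other named regions and named partner genes were picked with their values in view. Alternatives covered the list, IDR score, overlap, list length, depth, distance, TSS, promoters, scaling and motif window. One region is not reported here.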

Additional observations from a re-analysis of the deposited data

How the results depend on the processing

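No paired analysis was possible because the lists are pooled over the cultures of a genotype, so no culture was left out and depth per culture was not recovered. Merging overlapping intervals changed nothing, since intervals within a list do not overlap.

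The ratio of deletion-only to parent-only intervals at the adhesion genes (1.12) turned to 0.797 with lists of equal length by fold enrichment, where all genes turned too (0.861), and to 0.771 at a distance of 10 kb, where all genes did not (1.42) and where 35 parent-only and 27 deletion-only intervals and 10 genes with more deletion-only intervals were left. The shorter distance leaves fewer intervals by construction. For the other changes the cause was not tested. Of 109 alternative values for the comparisons, 85 stayed within 1.5 times (counts), the counting interval (shares and ratios) or the spread over pairs (medians). Ratios and medians also had to keep their direction. Each count was judged singly, so a turn in the lean between 2 counts was not marked. With lists of equal length, 202 parent-only and 161 deletion-only intervals both passed. The 85 include the merging of overlapping intervals, which could change nothing. Assignment by gene body gave a ratio of 1.43 with 360 deletion-only intervals, and a depth-scaled −log10 p of at least 100 gave 117 parent-only intervals. These last settings, the exclusion of *Nrxn3* and the summit with most reads were added after seeing the data. The median log2 of pairs (−0.23) was 0.06 with centred fold enrichments, with 13 pairs higher and 11 lower, and 0.01 outside promoters with 17 lower. Scaling by the median background gave 25 higher and 17 lower. Accepting any overlapping pair at a TSS, also added later, gave 2 genes with a higher promoter in place of 1. Promoter shares were 19.1% (parent) and 19.3% (ΔSRR2–18) with a 2.5 kb limit, and 41.8% and 48.6% at a distance of 10 kb. In a motif window of 50 bp, SOX matches were present in 11.5% (parent-only) and 6.37% (deletion-only), and AP-1 matches in 2.20% and 39.2%. The ratio at partner genes was 0.960 at 10 kb.

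Single genes were followed through these settings only where they are among the genes described in full, so the others were not checked. For the genes followed, the difference of deletion-only minus parent-only intervals changed sign at *Cdh2* (−1 to 3 with an IDR score of at least 830, with the gene 5′ end or with the −log10 p limit of 100), *Cdh6* (2 to −1 at 10 kb), *Nrxn3* (20 to −1 with the gene 5′ end) and *Ncam1* (1 to −4 with equal list length, −2 with the −log10 p limit and −1 by gene body). By gene body it also changed at *Lrrtm1* (−2 to 1), *Cntnap2* (−5 to 8) and *Cadm1* (4 to −4).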
